A study of Mus musculus with 4 samples.

Results

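The Hedgehog pathway was followed through its 9 core genes in mouse embryonic stem (ES) cells labelled wild type and Prep1-/-. Prep1 is a homeodomain transcription factor of the TALE class that binds DNA with Pbx partners and is encoded by Pknox1. The genes were taken by symbol from the 22718 genes of the expression files: the ligands Shh, Ihh and Dhh, the receptor Ptch1, the transducer Smo, the transcription factors Gli1, Gli2 and Gli3, and the inhibitor Hhip. All 9 were found. In the library labelled Prep1-/-, Ptch1, Gli1 and Gli2 stood above wild type by 2.12-fold, 1.62-fold and 1.68-fold, while Gli3 and Smo were lower at 0.861 and 0.750 of the wild type level. The ligands and Hhip had few reads in both libraries. A Prep1 peak lay at the RefSeq start of Gli3, and none lay within 5 kb of the other 8 genes. Over all annotated genes, 15.9% had a peak within 5 kb.

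RNA-seq was carried out on 1 wild type (WT) ES cell library and 1 library that is labelled Prep1-/- and was made from the KO2 line, called the KO library from here on. Both lines were C57BL/6 cells grown with leukemia inhibitory factor, which keeps ES cells undifferentiated. Prep1 binding was mapped by ChIP-seq in 1 library of wild type ES cells, for which the label gives C57BL/6 and the protocol R1 ES cells, against input DNA. Each genotype has 1 library from 1 line, so the differences between the genotypes have no replicate check, no test was possible and a difference between the lines cannot be told apart from an effect of the genotype. Intervals given with the values are exact 95% intervals that cover counting error only and compare the libraries.

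Hedgehog ligands are secreted proteins that bind the receptor Ptch1. Without ligand, Ptch1 keeps Smo inactive, and Gli proteins, above all Gli3, are cut to repressor forms. With ligand, Smo gathers in the primary cilium and Gli2 and Gli3 act as activators. Gli1, Ptch1 and Hhip are standard transcriptional readouts of the pathway, and because Ptch1 and Hhip bind ligand their induction closes a negative feedback loop. In the embryo the pathway patterns the neural tube, limb and gut, and Ihh made in the visceral endoderm signals to neighbouring tissue. A high mRNA level of these genes does not by itself measure the activity of the proteins.

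The deposited read counts added up to 29596294 for the WT library and 25717811 for the KO library. Both totals are several times the read number per sample stated in the methods of the study, for a reason that was not tested. If 1 fragment was counted more than once, all intervals given here are too narrow. All 10 ES cell markers, Pou5f1 and Nanog among them, had an RPKM (reads scaled to transcript length and sequencing depth) above 1 in both libraries, with a summed RPKM of 2018 and 2326. Pknox1 kept reads in the KO library, with 332 reads (RPKM 5.78) against 505 in the WT library (RPKM 7.85), a KO/WT ratio of 0.736 (0.638 to 0.846). Gene totals do not show which exons these reads came from. In the study, immunoblots of the KO2 line showed loss of the Prep1 protein. Genes on chromosome Y held 0 reads in the WT library and 991 in the other.

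Sequences are shown for the 2 peaks near Hedgehog genes that hold a full Prep1-Pbx recognition motif, the DECA motif, which reads TGAN directly followed by TGACAG, with N for any base. The Gli3 peak lies at chr13:15555384-15555885 on NCBIM37 (mm9) and runs from 172 bases before to 329 bases after the RefSeq start of Gli3. The motif is on the minus strand at chr13:15555652-15555661, within the first exon of a Gli3 transcript and 22 bases from the centre of the peak. The other peak lies inside the neighbouring gene Fancc at chr13:63531683-63532686, beyond the 3′ end of Ptch1, with the motif on the minus strand at chr13:63532167-63532176, 13 bases from the centre of the peak. Each is printed with 10 bases on either side, and capitals mark the motif.
Gli3 peak: tcaccggcccTGAGTGACAGttctgatttg
Peak beyond Ptch1: cacagctgctTGAGTGACAGgcccagaggc
The 10 letters are the same at both sites, TGAGTGACAG, while the bases around them differ. The DECA letters were found on either strand in 24.3% of the 3902 Prep1 peaks and in 0.874% of 32851 RefSeq promoters of 300 bases. With 1 mismatch allowed the shares were 63.4% and 9.40%. The study defined DECA by a looser consensus and reported it in a larger share of the same peaks. Peaks vary in length, unlike these promoters, so the shares of the 2 kinds of region are not directly comparable. The matches are descriptions of sequence and not measured binding sites.

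The 250 bases before the RefSeq start of Gli3, at chr13:15555306-15555555 (NCBIM37, plus strand), are shown because a peak covered that start. The GENCODE span of Gli3 begins farther upstream, at chr13:15555068, so these bases lie inside the gene by that annotation. Capitals mark the 172 bases that lie inside the peak.
Gli3 upstream sequence: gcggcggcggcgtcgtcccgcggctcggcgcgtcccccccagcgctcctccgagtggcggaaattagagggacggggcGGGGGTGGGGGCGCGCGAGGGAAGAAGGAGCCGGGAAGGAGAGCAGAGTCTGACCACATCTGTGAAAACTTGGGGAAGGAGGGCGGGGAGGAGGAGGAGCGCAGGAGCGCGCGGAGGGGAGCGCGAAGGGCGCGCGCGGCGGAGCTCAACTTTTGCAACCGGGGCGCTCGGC
The same stretch is shown for Ptch1 and Gli2, which had higher levels in the KO library and no peak within 20 kb. These are RefSeq sequences on GRCm38.p6, at chr13:63565736-63565985 and chr1:119053620-119053869, both on the minus strand and in lower case because no motif was found in them.
Ptch1 upstream sequence: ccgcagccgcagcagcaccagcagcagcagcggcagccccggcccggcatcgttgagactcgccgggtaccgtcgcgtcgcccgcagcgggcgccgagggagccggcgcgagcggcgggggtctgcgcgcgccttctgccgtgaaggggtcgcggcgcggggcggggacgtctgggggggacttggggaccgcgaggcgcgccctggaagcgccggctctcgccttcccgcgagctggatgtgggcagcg
Gli2 upstream sequence: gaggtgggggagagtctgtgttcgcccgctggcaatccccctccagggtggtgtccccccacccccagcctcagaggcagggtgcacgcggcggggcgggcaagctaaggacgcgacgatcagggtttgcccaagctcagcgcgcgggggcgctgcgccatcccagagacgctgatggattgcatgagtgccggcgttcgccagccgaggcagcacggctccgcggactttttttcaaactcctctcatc
RefSeq promoters, which run from 250 bases before to 50 after the start, were matched for 7 of the 9 genes, all but Shh and Gli1. None of the 7 held the DECA letters, the shorter TGACAG, which is part of DECA and occurs in 19.2% of all promoters, or the OCTA motif TGATTNAT, which is known from the related factor Meis1 and is found in 3.22%. The Gli recognition letters GACCACCCA were in none of the 7 either, also with 1 mismatch allowed, against 0.253% and 6.74% of all promoters. Both strands were searched. Between 61.7% (Dhh) and 76.3% (Ptch1) of the bases were G or C, against a median of 52.7% over all promoters.

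**Figure D1:**
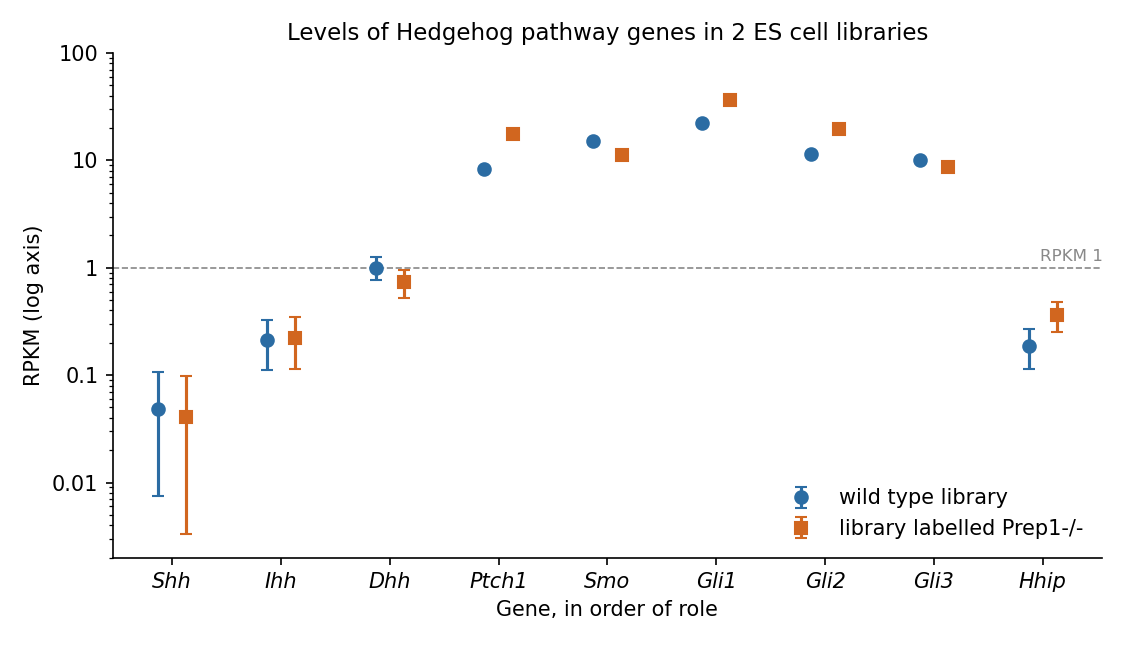
RPKM of the 9 Hedgehog genes on a log axis in the WT library (blue circles) and the KO library (orange squares), 1 library each, with exact 95% Poisson intervals that are hidden by the symbol where narrow. Ptch1, Smo and the 3 Gli genes lay between 8.24 and 36.1 RPKM, while Shh, Ihh and Hhip stayed under 0.4 RPKM and Dhh lay near the dashed line at 1.

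The levels fell into 2 tiers, as the plot of RPKM by gene shows. Gli1 had the highest level of the 9 genes in both libraries, at RPKM 22.3 (21.4 to 23.2) in the WT library, which put it at percentile 79.6 of all genes. In the WT library it was followed by Smo, Gli2, Gli3 and Ptch1, with RPKM values of 15.0, 11.5, 10.1 and 8.24 and with intervals of neighbouring genes that did not overlap. Then came a gap of 8.21-fold to Dhh. In the KO library the order was Gli1, Gli2, Ptch1, Smo and Gli3, so Ptch1 stood 2 places higher and Gli3 1 place lower. Levels of different genes rest on the transcript lengths behind the deposited RPKM, which exceeded the annotated exon length by 1.31-fold for Ptch1 and were 0.973 of it for Smo. A KO/WT ratio of the same gene does not depend on that length.

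Of the ligands, Shh and Ihh were close to the limit of what these libraries could measure, while Dhh had more reads. Sonic hedgehog (Shh, chr5:28783355-28793641), the ligand of notochord and floor plate, had 3 reads in the WT library and 2 in the KO library, RPKM 0.0485 and 0.0407. Its KO/WT ratio of 0.839 had an interval of 0.0623 to 6.51, so no difference in Shh was detectable at this depth. Indian hedgehog (Ihh, chr1:74991891-74998246), which acts in endoderm and cartilage, had 15 and 14 reads, RPKM 0.213 and 0.223, with a ratio of 1.05 (0.467 to 2.32). Desert hedgehog (Dhh, chr15:98723462-98728971), best known from Sertoli and Schwann cells, was the ligand with the most reads, 71 and 46. Its RPKM was 1.00 in the WT library and 0.732 in the other, a ratio of 0.730 with an interval of 0.489 to 1.06 that spans 1. The 3 ligands together had 89 and 62 reads, a ratio of 0.779 (0.554 to 1.09). This ratio was taken on the summed reads with the same library scaling, not on RPKM. In bulk RNA, fewer cells that make a transcript and less transcript per cell cannot be told apart.

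Ptch1 (chr13:63610261-63674474, minus strand), the ligand receptor, showed the highest ratio of the 9 genes. It had 1698 reads in the WT library and 3223 in the KO library, and its RPKM was 8.24 (7.85 to 8.64) against 17.5 (16.9 to 18.1). The 2 intervals lay far apart. The KO/WT ratio was 2.12 (2.00 to 2.25), a difference of 1.09 on the log2 scale, and moved Ptch1 from percentile 64.4 to 76.8 of all genes. Among the 8046 genes with at least 1000 reads in the libraries together, a minimum chosen after seeing the data, 25 or 0.311% had a higher ratio. Genes on chromosome 13 with an RPKM above 1 in both libraries had a median ratio of 0.961, and Fancc, the 1 counted gene within 100 kb of Ptch1, had a ratio of 1.04 (0.867 to 1.26).

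Smo (chr6:29685694-29711365, plus strand), the seven-pass membrane protein that Ptch1 restrains, was lower in the KO library. It had 1327 and 890 reads and RPKM 15.0 (14.2 to 15.9) and 11.3 (10.5 to 12.0). The ratio of 0.750 (0.688 to 0.817) lay below 1 without reaching the threshold of 0.7 for a lower call. Within a library, the level of Ptch1 was 0.548 of that of Smo in the wild type and 1.55 times that of Smo in the KO library. This shift of 2.83-fold (2.55 to 3.14) in the read ratio does not depend on how the libraries are scaled.

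The 3 Gli factors did not share a direction. Gli1 (chr10:126766945-126778645, minus strand), an activator that is itself a Hedgehog target, had 2359 reads in the WT library and 3419 in the other. Its RPKM of 22.3 and 36.1 (34.9 to 37.4) gave a KO/WT ratio of 1.62 (1.54 to 1.71). Gli2 (chr1:120730709-120950196, minus strand), the main activator of the pathway, had 2245 and 3383 reads, RPKM 11.5 (11.1 to 12.0) and 19.4 (18.8 to 20.1), and a ratio of 1.68 (1.60 to 1.78). The ratios of Gli1 and Gli2 could not be separated, since Gli1 stood at 1.93 times the level of Gli2 in the WT library and at 1.86 times in the other, a shift of 0.962 (0.892 to 1.04). Gli3 (chr13:15555068-15821859, plus strand), the main repressor, had 2523 and 1942 reads, RPKM 10.1 (9.74 to 10.5) and 8.73 (8.34 to 9.12), and a ratio of 0.861 (0.811 to 0.913), which passed no threshold.

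Against Gli3 as a reference within each library, the differences among the Gli genes were large compared with the counting error. Gli1 stood at 2.20 times the level of Gli3 in the WT library and at 4.14 times in the KO library, and Gli2 at 1.14 and 2.23 times. The read ratios shifted by 1.88-fold (1.74 to 2.04) for Gli1 and by 1.96-fold (1.81 to 2.12) for Gli2. Expressed as shares of the summed RPKM of the 3 genes, which was 44.0 and 64.3, Gli3 made up 23.1% in the WT library and 13.6% in the other. The share of Gli1 was 50.7% and 56.2%, and that of Gli2 was 26.2% and 30.2%. Ptch1 differed more between the libraries than Gli1 and Gli2 did, with read ratios against them that shifted by 1.31-fold (1.21 to 1.42) and 1.26-fold (1.16 to 1.36).

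Hhip (chr8:82490014-82581905, minus strand), a membrane protein that binds and sequesters the ligands, had 23 reads in the WT library and 40 in the KO library. Its RPKM stayed under 1 in both, at 0.188 (0.114 to 0.271) and 0.360 (0.251 to 0.478). The ratio of 1.91 (1.14 to 3.40) had an interval above 1, but the RPKM filter kept Hhip from a call. With so few reads, that interval might span 1 if fragments were counted more than once. Chromosome 8 stood apart in these libraries, with a median ratio of 0.779 over its 702 genes with RPKM above 1 in both.

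**Figure D2:**
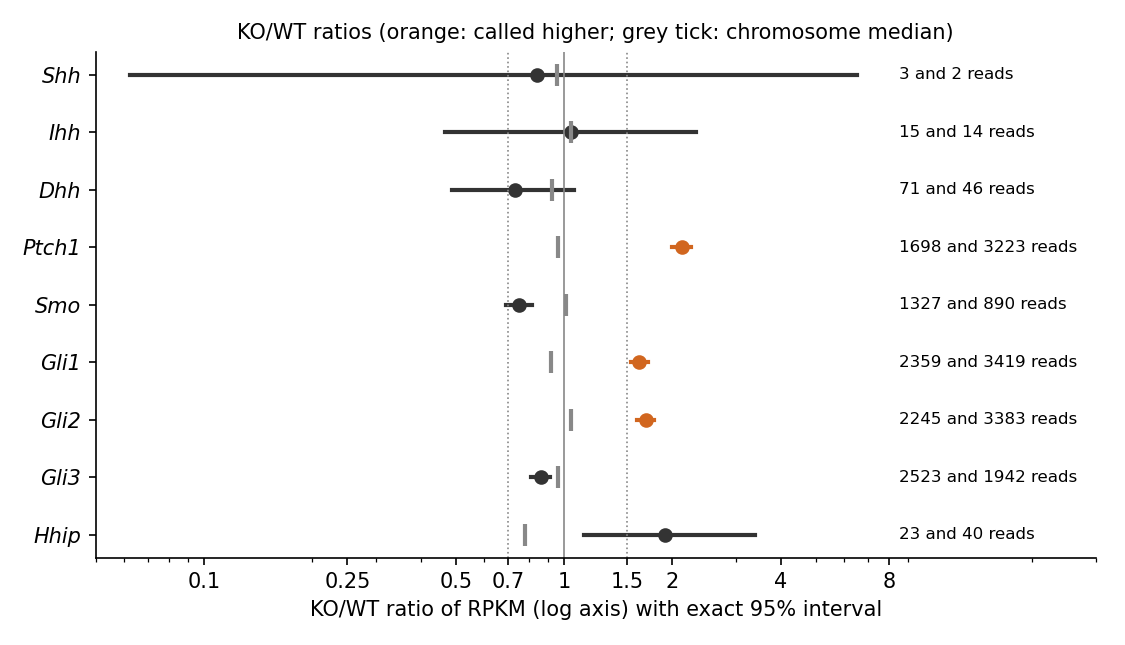
KO/WT ratio of RPKM on a log axis for the 9 Hedgehog genes, with exact 95% intervals, read counts of the WT library and the KO library at the right, and dotted lines at the call thresholds of 0.7 and 1.5. Ptch1, Gli1 and Gli2 (orange) lie above 1.5, Smo and Gli3 lie below 1, the grey ticks give the median ratio of expressed genes on the same chromosome, and the interval of Shh spans 0.0623 to 6.51.

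A gene was called higher with an RPKM above 1 in the KO library and a KO/WT ratio above 1.5, and lower with an RPKM above 1 in the WT library and a ratio below 0.7. The ratio thresholds follow the study, while the library in which each RPKM filter was applied was set for these calls. Of the 9 Hedgehog genes 3 were called higher, Ptch1, Gli1 and Gli2, against 4.35% of the 22633 genes with finite values. None was called lower, against 8.39% of those genes. Among genes with RPKM above 1 in the library in question the shares called were 7.2% higher and 13.8% lower. Among the 8046 genes with at least 1000 reads together, which include Ptch1, Smo and the 3 Gli genes, 1.98% were called higher and 7.02% lower. By the interval alone, 4 of the 9 lay above 1, Ptch1, Gli1, Gli2 and Hhip, against 14.9% of all genes, and Smo and Gli3 lay below 1, against 25.5%. Whether an interval leaves out 1 also depends on the reads of the gene. Of 13218 genes with RPKM above 1 in both libraries, 2744 had an interval above 1 and 4861 below. The median log2 ratio of the 9 genes was 0.07, beside -0.02 over all genes and -0.07 over the 13218 genes whose RPKM exceeded 1 in each library.

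**Figure D3:**
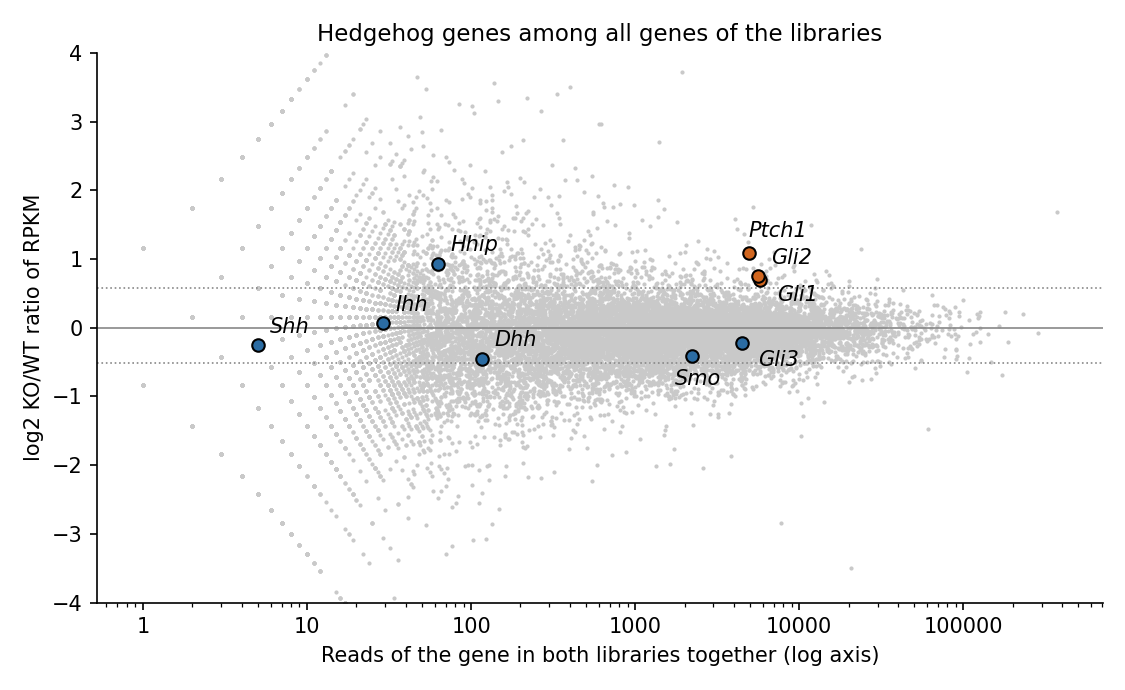
Log2 KO/WT ratio of RPKM against the reads of a gene in both libraries together (log axis) for all genes with finite values and at least 1 read (grey), with the vertical axis cut at 4 log2 units on either side of 0, the Hedgehog genes in colour (orange where called higher) and dotted lines at the call thresholds. Ptch1, Gli1 and Gli2 sit at the upper edge of the genes with a like number of reads, Smo and Gli3 lie within the cloud, and Shh lies where single reads set the ratio.

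The other genes of the pathway were described from 6 lists by role, in which 93 of 95 genes were found. Of these 93, 3 were called higher and 7 lower, beside 4.35% and 8.39% of all genes with finite values. Their median log2 ratio was -0.01, and the intervals lay above 1 for 26 genes, below 1 for 30 and spanned 1 for 37. The split was 5 higher and 7 lower with TMM-like scaling of the libraries, and 5 and 6 with the median of each chromosome set to 0. Among 6 coreceptors and further receptors, Gpc3, a glypican that restrains Hedgehog signalling, was called higher with 1301 and 1769 reads and a ratio of 1.52 (1.41 to 1.63). Gpc3 was not called with the median of each chromosome set to 0 or with a pseudocount of 1. It lies on chromosome X, and the libraries differed in chromosome Y reads as given above, a link that was not tested. The coreceptor Gas1 was called lower, with 78 and 40 reads and a ratio of 0.580 (0.382 to 0.850), a call that was lost with a pseudocount of 1 and with an RPKM above 1 asked of both libraries. The endocytic receptor Lrp2, with the most reads of this list, had a ratio of 0.907 (0.872 to 0.943).

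Genes for ligand processing and release had no call among 6 found, a median ratio of 0.818, and Scube3, which helps to release the ligand, at 0.842 (0.780 to 0.910) as the one with the most reads. None of the 14 transducers downstream of Smo was called, and their median ratio was 1.09. Adrbk1, a kinase of Smo, was the most read of them, at 0.896 (0.854 to 0.941). Sufu, the cytoplasmic inhibitor of the Gli factors, named for its role after its values were seen, had 2740 and 2012 reads and a ratio of 0.821 (0.775 to 0.870). Of 16 kinases and ubiquitin ligase components acting on Gli proteins, Numb, an adaptor that promotes loss of Gli1 protein, was called lower with 1429 and 840 reads and a ratio of 0.658 (0.603 to 0.716). Csnk1d, a casein kinase with the most reads of that list, stood at 0.966 (0.940 to 0.992). The 20 genes of the primary cilium had no call and a median ratio of 1.11, with 9 intervals above 1 and 2 below. The intraflagellar transport gene Ift52 had the most reads of these, with a ratio of 1.32 (1.22 to 1.43).

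Genes known as Hedgehog targets in other tissues lay on both sides of 1. Of 31 found, 2 were called higher and 5 lower, beside 4.35% and 8.39% of all genes with finite values, and the median ratio was 0.957. Sfrp1, a secreted Wnt inhibitor, had 1947 and 2704 reads and a ratio of 1.55 (1.46 to 1.65), and Prdm1, a transcriptional repressor, had 224 and 376 reads and a ratio of 1.87 (1.59 to 2.22). The growth factor gene Igf2, with the most reads of the list, was called lower with 45829 and 14822 reads and a ratio of 0.362 (0.355 to 0.368). Jag2, a Notch ligand, stood at 0.516 (0.468 to 0.566), Igfbp6, an IGF binding protein, at 0.507 (0.371 to 0.675) and Snai1, a repressor of E-cadherin, at 0.598 (0.515 to 0.690). Foxf1a, a forkhead factor of gut mesenchyme, passed the thresholds at 0.639 with 34 and 19 reads, and its interval of 0.337 to 1.13 spans 1.

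**Figure D4:**
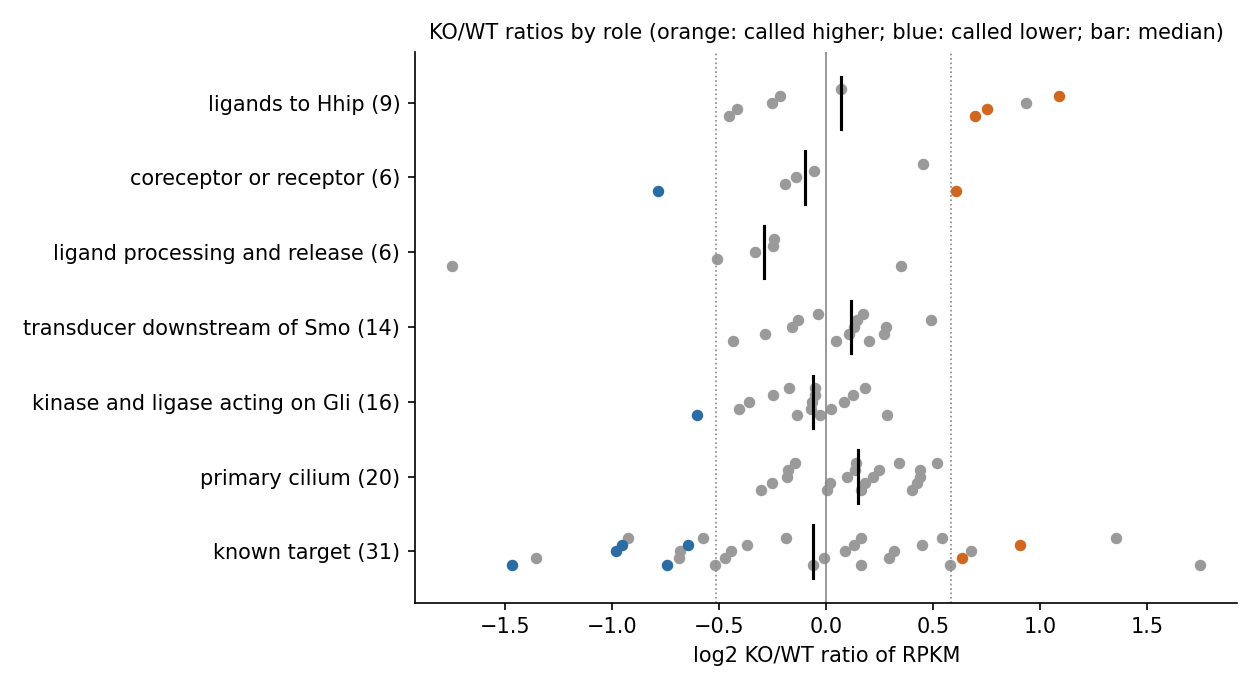
Log2 KO/WT ratio of RPKM for the 9 Hedgehog genes, labelled ligands to Hhip, and for 93 other pathway genes in 6 lists by role, 1 point per gene, with a black bar at the median and dotted lines at the call thresholds (orange called higher, blue called lower). The 3 calls among the 9 genes are all higher, the cilium and transducer lists hold no call, and the known targets spread to both sides with 2 higher and 5 lower calls, while grey points beyond the dotted lines did not pass the RPKM filter.

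Some markers of other cell types also differed between the libraries. Over all genes with finite values, the interval lay below 1 for 25.5% and above 1 for 14.9%. The 11 visceral endoderm markers had a summed RPKM of 18.5 in the WT library and 9.98 in the KO library, with 9 intervals below 1 and 1 above. For 6 markers of notochord and floor plate the sums were 27.4 and 10.7, with 3 intervals below 1 and 0 above. For 6 of neural progenitors they were 67.8 and 49.7, with 3 below and 1 above. For 12 of fibroblasts they were 153 and 174, with 3 below and 3 above, and both calls in that list were lower. For 6 of endothelium they were 25.9 and 36.2, with 1 below and 2 above. In these 4 lists most of the sum came from 1 or 2 abundant genes, so a sum does not give the direction of every marker. Among these lists only Lum (fibroblast) and Emcn (endothelium) were at 0 reads, both in the WT library. Of the 10 ES cell markers 9 had an interval above 1, with a median ratio of 1.26. The part of these differences in the Hedgehog values was not tested.

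Genes near the Hedgehog genes gave a local background. Of 27 genes within 100 kb, 23 had at least 20 reads, and 3 of these were called, all of them near Gli1. Over all genes with finite values, 4.35% were called higher and 8.39% lower. Inhbc, an inhibin subunit gene, was called higher with 32 and 56 reads and a ratio of 1.93 (1.25 to 3.12). Kif5a, a kinesin heavy chain, was called lower at 0.636 (0.567 to 0.711), and the stress response factor Ddit3 was called lower at 0.425 (0.386 to 0.467) with 1584 and 602 reads. The 9 neighbours of Gli1 had a median ratio of 0.825, beside 1.62 for Gli1. Arhgap9 overlaps the span of Gli1, and how reads in the overlap were assigned was not tested. It had 258 and 190 reads and a ratio of 0.825 (0.679 to 0.997), opposite in direction to Gli1. Gm13717 likewise overlaps Smo, with 20 and 27 reads. No gene with at least 20 reads lay within 100 kb of Gli2 or Gli3.

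Prep1 peaks were then placed against the genes. Of the 9 genes, Gli3, Gli1 and Dhh had a peak within 20 kb of the gene span, 3 in all, while 24.4% of the 21446 annotated genes did. Within 5 kb Gli3 was the 1 gene left, against 15.9% of genes, and within 100 kb 6 genes had a peak, against 49.2%. With only the peaks whose score was at or above the median, Dhh and Gli3 had a peak within 20 kb, against 14.7%. The deposited score of a peak had a median of 21 and a range of 4 to 336 over the 3902 peaks. It equalled the rounded fold enrichment over input DNA in 1982 of 1997 peaks for which both were compared, and the remaining peaks were not compared. The Gli3 peak, 502 bp long and centred 78 bases after the RefSeq start, had a score of 21. Its centre lay 566 bases after the GENCODE start of Gli3, the kind of start used for the other genes.

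The peaks near Gli1 and Dhh lay closer to the start of another gene. The nearest Gli1 peak, chr10:126788566-126789286 with a score of 17, was centred 10.3 kb before the start of Gli1 and 98 bases before that of Inhbe, and it held neither the DECA letters nor TGACAG. Inhbe itself had 20 and 4 reads. A further pair of peaks lay 52.2 and 82.3 kb after the start of Gli1, with scores of 11 and 12, the second inside Kif5a. The Dhh peak, chr15:98748253-98749040 with a score of 73, was centred 19.7 kb before Dhh and 16 bases after the start of Lmbr1l. The peaks within 100 kb of Smo and Ihh showed the same arrangement for the one at Tspan33 (chr6:29643808-29644549, score 48, 41.5 kb before Smo) and the one at Cdk5r2 (chr1:74900779-74902089, score 82, 96.8 kb after the start of Ihh). A second Ihh peak with a score of 21 lay 93.1 kb after the start of Ihh.

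Ptch1 had no peak within its span or 20 kb of it. The nearest, with a score of 78, lay 77.6 kb beyond the 3′ end of the gene in Fancc, 66.4 kb from the start of Fancc, and is the one with the DECA letters printed above. Of the 9 peaks within 100 kb of a Hedgehog gene, this one and the Gli3 peak held the DECA letters. With 1 mismatch allowed, the Dhh peak and the 2 peaks after the start of Gli1 did so too, which makes 5 of the 9. Gli2, called higher, lay farthest from any peak, at 3.98 Mb, a distance that 0.779% of the annotated genes reach, while the median over those genes was 104 kb. The nearest peaks were 1.17 Mb from Shh and 426 kb from Hhip, and the one nearest to Hhip held 7 matches to the DECA letters at a score of 9. Of the 3 genes called higher, none had a peak within 5 kb of its span, while 15.9% of all annotated genes did. A count over 3 genes is too small to set apart from that share. Gli3, whose RefSeq start a peak covered, had a ratio of 0.861. Distance to a peak does not say which gene a bound site acts on.

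**Figure D5:**
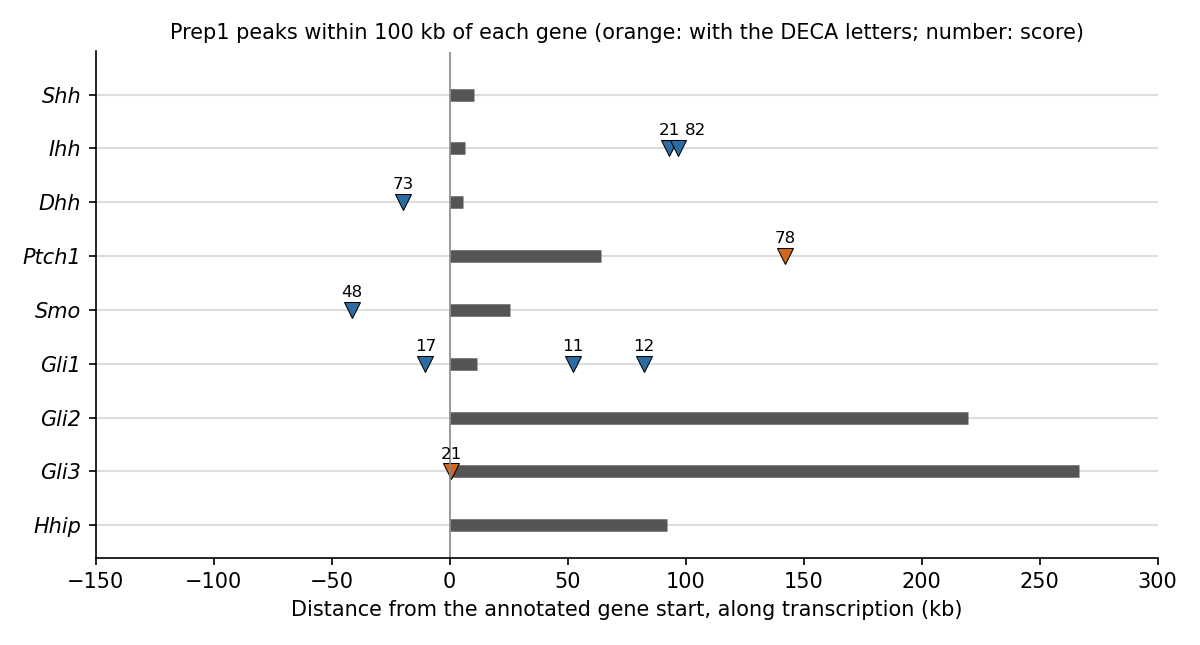
Prep1 peaks (triangles, with their scores) within 100 kb of the span of each Hedgehog gene, drawn at their distance in kb from the annotated start of the gene along the direction of transcription, with the gene span as a grey bar and orange triangles for peaks with the DECA letters. The Gli3 peak is the one nearest to a gene start, 0.566 kb after it, the Ptch1 peak lies past the end of the gene, and Shh, Gli2 and Hhip have no peak in range.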

How the data were processed

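RNA-seq of 1 wild type and 1 Prep1-/- ES cell library and Prep1 ChIP-seq of 1 library were used, and groups were taken from the sample labels. For each gene the authors deposited a read count, from paired-end reads of 50 bp assigned with RSEM to Ensembl release 63 on mm9 and processed with DESeq, and an RPKM value, which in both files is proportional to the read count plus 1. The deposited counts add up to several times the reads that the methods state, for a reason that was not tested. If 1 fragment was counted more than once the intervals are too narrow. For the ChIP library the authors deposited peaks from single-end reads of 36 bp, mapped with BWA and called with MACS against input DNA, each with a score. Program versions are not given in the sources used here. The input library itself was not analysed here.

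The KO/WT ratio of a gene was taken on the deposited RPKM without a pseudocount, and 85 genes with an RPKM of Inf were left out. For the ligands together it was taken on the summed reads. Exact Clopper-Pearson intervals (95%) of the share of reads were turned into intervals of the ratio, and Poisson intervals were used for levels. PCR reads are not independent molecules, so the intervals cover counting error only. Gene positions came from GENCODE M1 on NCBIM37, promoters from RefSeq on GRCm38.p6, and the Gli3 sequence was placed on NCBIM37 by an exact match. Motifs were searched on both strands. Calls and intervals were tested on simulated counts with Poisson noise only, with large changes placed in genes with many reads. That simulation did not cover other noise between libraries, smaller changes or genes with few reads. Besides the 9 genes, Pknox1, called genes of the pathway lists whose interval leaves out 1, the gene with the most reads of each list and called neighbours with at least 20 reads were named by rule. The members and lists were chosen with earlier results of these data known. Alternatives were 3 other scalings, chromosome medians set to 0, pseudocounts of 0.1 and 1, other RPKM filters, other thresholds and other peak windows. Python 3.11.15, numpy 2.4.6, pandas 2.3.3, scipy 1.17.1, matplotlib 3.10.9 and pysam 0.24.0 were used.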

Additional observations from a re-analysis of the deposited data

How the results depend on the processing

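With 1 library per genotype, none of the KO/WT ratios has a replicate check. No paired analysis was possible because the labels carry no replicate numbers and each genotype has 1 library. Over 54 recomputed ratios of the 9 Hedgehog genes none crossed 1, and 52 stayed within the counting interval. The exceptions were Gli1, at 1.76 with the median of each chromosome set to 0, and Ptch1, at 2.00 with a pseudocount of 1. Over all alternatives the ratio ranged from 2.00 to 2.23 for Ptch1, 1.59 to 1.76 for Gli1, 1.61 to 1.77 for Gli2 and 1.14 to 2.45 for Hhip. The other scalings raised every ratio by 1.03-fold to 1.05-fold. The 3 higher calls among the Hedgehog genes became 1 (Ptch1) with thresholds of 0.5 and 2, and 4 (with Hhip) without the RPKM filter, where 12.6% of all genes passed. Among the other pathway genes, the 3 higher calls became 5 with TMM-like scaling, 5 with chromosome medians set to 0, 6 without the RPKM filter and 0 with thresholds of 0.5 and 2. The 7 lower calls became 14 without the RPKM filter and 1 (Igf2) with thresholds of 0.5 and 2. With a pseudocount of 1 they were 5, without Gas1 and Foxf1a, beside 2 higher calls, without Gpc3, and with an RPKM above 1 in both libraries they were again 5, without the same pair. Foxf1a also lost its call with chromosome medians set to 0. The count of 3 Hedgehog genes with a peak within 20 kb was 1 within 5 kb and 6 within 100 kb. A minimum of 1000 reads, added after seeing the data, took the share of all genes called higher from 4.35% to 1.98%. Depth limits Shh, Ihh, Dhh and Hhip, whose intervals are wide.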
